A study of Mus musculus with 12 samples.

Results

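The macrophage and leukocyte genes are 38 mouse genes chosen by name as markers of blood-derived cells, most of them of macrophages, out of 55416 genes measured. The choice was made with earlier results of these data known. The genes were followed in cultures of neonatal mouse cardiomyocytes, the muscle cells of the newborn heart. The 4 groups were cells given phenylephrine (PE, which acts on alpha1-adrenergic receptors and makes heart muscle cells grow) with a GapmeR against lincRNA-p21, PE with a negative-control GapmeR, PBS with the lincRNA-p21 GapmeR, and PBS with the negative-control GapmeR. PE lasted 24 hours, and each group had 3 libraries of polyadenylated RNA. Every group had received a GapmeR, a short antisense strand through which RNase H cuts the RNA it pairs with. The strain of the mice, the dose of PE and the purity of the cells are not stated in the labels. Below, knockdown means the lincRNA-p21 GapmeR and control the negative-control GapmeR. Of the 38 members, 37 reached a mean normalised read count (read count divided by a size factor per library) of at least 1 and were tested. The remaining member, Timd4, a receptor for dying cells on resident macrophages, had 0 reads in every library, which allows up to 3 reads per library by counting error alone.

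Macrophages live among the muscle cells of the heart, where they take up dying cells and debris and release complement and chemokines. They depend on the growth factor receptor encoded by Csf1r and on the transcription factor PU.1, encoded by Spi1. C1q, built from the chains of C1qa, C1qb and C1qc, starts the classical complement pathway and tags debris for uptake. Fc receptors bind the constant part of antibodies and pass the signal on through adaptor proteins.

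The members were a small part of the RNA. Their summed normalised read count was 7476 to 8254 in PE knockdown, 7591 to 8295 in PE control, 5350 to 5610 in PBS knockdown and 5505 to 6412 in PBS control libraries. That was 0.0348% to 0.0378% of the signal in PE knockdown, 0.0324% to 0.0356% in PE control, 0.0267% to 0.0283% in PBS knockdown and 0.0272% to 0.0308% in PBS control. Every PE library lay above every PBS library on both scales. The labelled cell type was present, since all 13 cardiomyocyte markers were detected, with a summed normalised read count of 612117 to 1259864 per library. The defining leukocyte markers Ptprc, Csf1r and C1qa were detected in every library too. In bulk RNA, fewer cells of a type and less RNA per cell cannot be told apart, and this holds for every value below.

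Depth was even, with 21325485 to 22139681 reads in genes per library as recovered from the values. That recovery is less sure for PE knockdown replicates 2 and 3, where 1 read was worth 0.997 and 0.993, close to 1. The lincRNA-p21 gene Trp53cor1 averaged 9.16 ± 0.728 in PE knockdown and 41.6 ± 12.5 in PE control, and 15.1 ± 6.6 in PBS knockdown and 64.5 ± 5.5 in PBS control (normalised read count, mean ± SD, n = 3). Its libraries did not overlap between GapmeRs. Replicate 1 of PE knockdown, replicate 2 of PBS knockdown and replicate 2 of PBS control stood farthest from their groups, with a residual SD over genes of 0.404, 0.43 and 0.446 (log2) against at most 0.387 elsewhere. Without these 3 libraries PE raised 18 members and lowered 1 in knockdown cells, and raised 17 and lowered 0 in control cells. The GapmeR then raised 2 members in PE and 4 in PBS and lowered 0. These 3 libraries were picked by their residual spread in the same data, so more calls without them are no independent evidence. Calls over all genes grew in that setting. For PE they were 6388 in knockdown and 7421 in control cells, against 5967 and 5543 with all 12 libraries. For the GapmeR they were 4672 in PE and 1865 in PBS, against 2553 and 997. The labels do not say that libraries came from separate cultures or animals, so the p-values rest on the spread among these libraries alone, which may be technical.

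Levels differed widely between members. Per kilobase of exon, the normalised read count averaged over all 12 libraries was 961 for Lyz2, which encodes lysozyme, 877 for Cd68, a glycoprotein of macrophage lysosomes, and 339 for Ctss, a lysosomal protease. The signalling adaptor Fcer1g stood at 307 per kilobase, the mast cell protease gene Mcpt4 at 198 and the adaptor Tyrobp at 193. Csf1r stood at 58.1 per kilobase, Spi1 at 36.4 and Ptprc, the gene of the pan-leukocyte phosphatase CD45, at 3.45. Without the length scale, Lyz2, Cd68, Mpeg1 and Lcp1 held 54.2% of the members' summed mean value. At the low end, 9 members had a mean normalised read count under 10 (Ly86, H2-Ab1, Cx3cr1, Folr2, Aif1, H2-Aa, Cd163, Cpa3 and Timd4), so only large differences could be called in them.

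PE raised the C1q chains, Fc receptors, Itgam, Mrc1, Pf4 and Mcpt4 by more than 1 on the log2 scale with both GapmeRs, while Ptprc and Spi1 did not pass the test. In control cells, 17 of 37 members rose and 1 fell (limma on log2 of the normalised read count plus 1, Benjamini-Hochberg adjusted p of 0.05), where 25.4% of all 21799 genes tested were called (12.6% higher and 12.8% lower). The members' median log2 change was 0.48, against -0.00 over all genes. In knockdown cells, 18 of 37 rose and 0 fell, where 27.4% of all genes were called, 13.4% higher and 14% lower, and the median was 0.38 against 0.00. The member called lower in control cells was H2-Ab1. Because the members were chosen with earlier results known, a share above that of all genes can come from the choice alone. Each comparison has its own PE and PBS libraries, and 16 members rose in both. PE libraries lay wholly above PBS libraries for 20 members with each GapmeR. Neither the count in both comparisons nor the count of separated genes was made over all genes. With values rescaled to the same total per library, which shifts the median of all genes by -0.14 in knockdown and -0.16 in control cells, 13 members rose and 1 fell in knockdown cells, and 12 rose and 1 fell in control cells. The calls lost in control cells were Lcp1, Laptm5, Adgre1, Mpeg1 and Tyrobp (0.19 to 0.47 on the log2 scale, with limma adjusted p between 0.071 and 0.2). In knockdown cells they were Laptm5, Csf1r, Adgre1, Mpeg1 and H2-Eb1 (0.24 to 0.46, adjusted p between 0.052 and 0.17), and Ly86 was called lower (-1.10, 0.05). Among all genes that scaling gave 1971 higher and 4441 lower calls in knockdown cells, against 2918 and 3049 as deposited, and 1681 higher and 4289 lower in control cells, against 2742 and 2801.

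**Figure D1:**
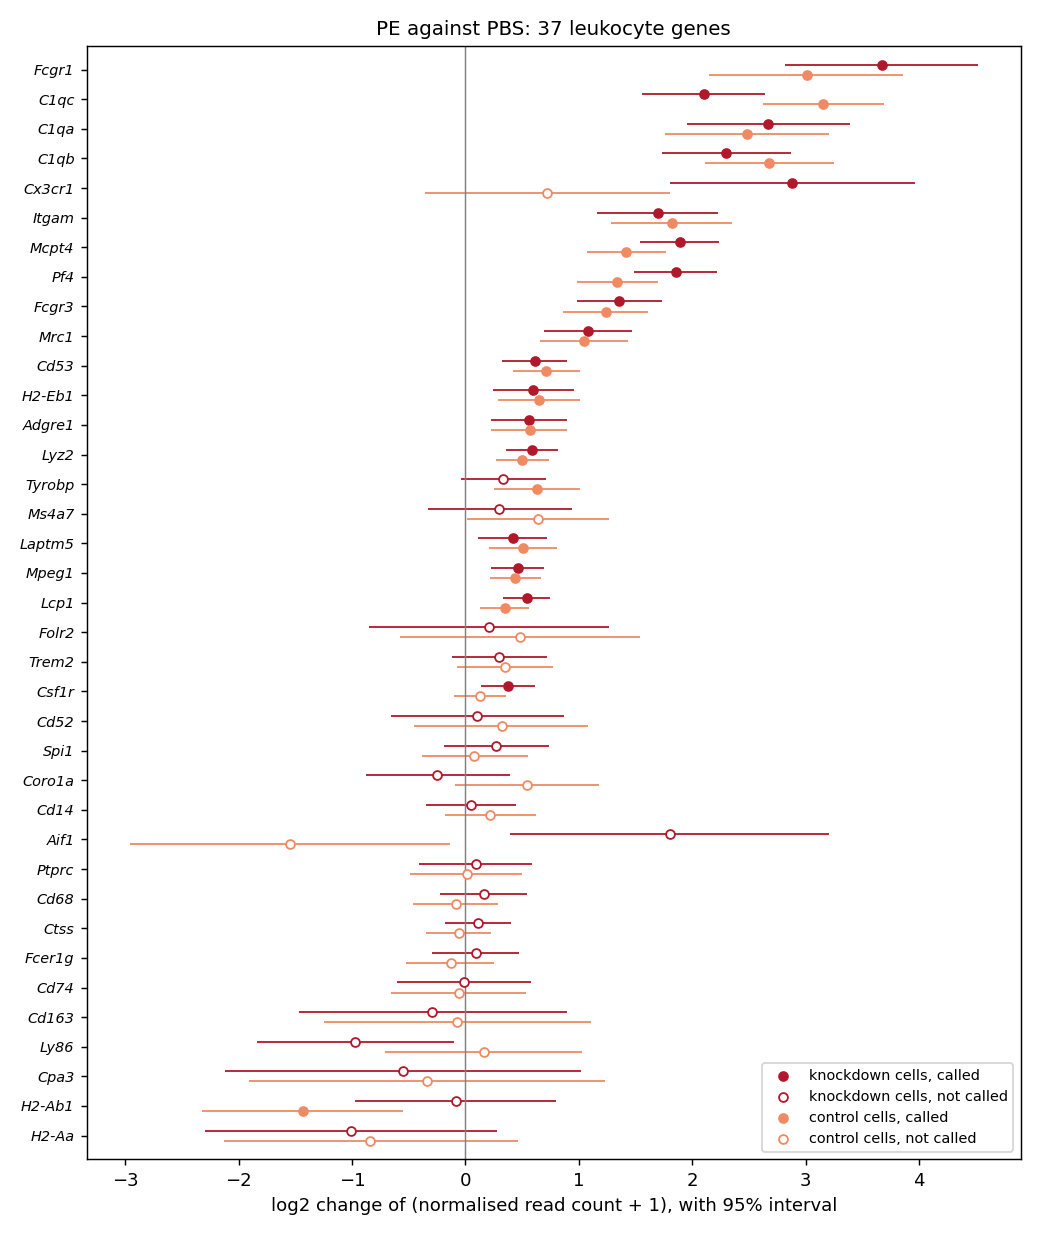
The log2 change of the normalised read count plus 1 with PE is on the x axis for 37 members, with 95% intervals, in knockdown cells (dark) and control cells (light); filled points passed limma. Fcgr1 and the C1q genes lie beyond 2 with both GapmeRs, while Ptprc, Spi1, Cd68, Ctss and Fcer1g lie near 0.

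The genes that mark the lineage came first in the comparison. Ptprc had 61.0, 57.8 and 62.5 in PE knockdown against 62.6, 42.5 and 68.8 in PBS knockdown libraries, and 47.4, 70.1 and 85.8 in PE control against 74.0, 51.1 and 74.6 in PBS control libraries (normalised read counts, as throughout). The groups overlapped, with a log2 change of 0.09 (95% interval -0.41 to 0.59) in knockdown and 0.01 (-0.49 to 0.50) in control cells. Spi1 overlapped as well, with 95.1 ± 12.4 in PE knockdown against 80.8 ± 27.2 in PBS knockdown cells, and 111 ± 15.5 in PE control against 106 ± 26.9 in PBS control cells. Its log2 change was 0.27 (-0.19 to 0.74) and 0.08 (-0.38 to 0.55). The intervals of Ptprc and Spi1 include the members' median changes of 0.38 in knockdown and 0.48 in control cells. Neither gene was therefore shown to be unchanged. Csf1r had 392, 387 and 357 in PE knockdown against 277, 315 and 282 in PBS knockdown libraries. Every PE library was higher there, and the log2 change was 0.38 ± 0.11 (SE; limma, adjusted p = 0.015). In control cells Csf1r had 366, 350 and 338 in PE against 291, 334 and 339 in PBS libraries, which overlapped, with a log2 change of 0.13 (95% interval -0.10 to 0.36). The call in knockdown cells was lost without PBS knockdown replicate 3 (0.36, limma adjusted p = 0.05) or PE knockdown replicate 2 (0.36, 0.057). Rescaling every library to 1 total ended it as well (0.24, 0.13). Csf1r shares 873 exon bases with Hmgxb3 on the other strand, which averaged 1046, and no source at hand says whether strand was used in counting. Reads of this pair may therefore be mixed.

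All 3 C1q chains rose with both GapmeRs. C1qa (ENSMUSG00000036887.6, GRCm38 chromosome 4, 136895917 to 136898803) had 55.7, 46.9 and 58.6 in PE knockdown against 12.7, 4.52 and 7.33 in PBS knockdown libraries, and 46.3, 38.3 and 46.7 in PE control against 4.74, 6.14 and 11.3 in PBS control libraries. C1qb (ENSMUSG00000036905.9, chromosome 4, 136880129 to 136886187) had 158, 124 and 75.5 in PE knockdown against 21.8, 20.8 and 24.8 in PBS knockdown libraries, and 86.2, 99.9 and 110 in PE control against 12.3, 21.5 and 11.3 in PBS control libraries. No PE library of either gene overlapped a PBS library. C1qc (ENSMUSG00000036896.6, chromosome 4, 136889804 to 136893065) had 88.8, 111 and 80.4 in PE knockdown against 15.4, 24.4 and 23.8 in PBS knockdown libraries, and 65.7, 61.6 and 73.8 in PE control against 8.54, 5.11 and 6.61 in PBS control libraries. For C1qc the PBS groups were apart too, with every PBS knockdown library above every PBS control library.

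In ratios of means, PE cells held 6.56, 5.31 and 4.4 times the PBS value of C1qa, C1qb and C1qc in knockdown cells, and 5.91, 6.55 and 9.93 times in control cells. The log2 changes were 2.67 ± 0.34, 2.30 ± 0.27 and 2.10 ± 0.26 in knockdown and 2.48 ± 0.34, 2.68 ± 0.27 and 3.15 ± 0.26 in control cells (limma, adjusted p at most 2.0e-05). The PE effect on C1qc differed between the GapmeRs by -1.05 ± 0.36, which did not pass limma over all genes (adjusted p = 0.37, unadjusted p = 0.0091). The genes lie side by side on the minus strand of chromosome 4. Windows of 300 bases around the start of C1qb (chr4:136886151-136886450, minus strand) and C1qc (chr4:136892865-136893164, minus strand), from 250 bases before the start to 50 after it, are shown because the chains moved together. They are GRCm38.p6 sequence from RefSeq, 5′ to 3′, and capitals mark the PU.1 core GAGGAA or, read from the other strand, TTCCTC.
C1qb: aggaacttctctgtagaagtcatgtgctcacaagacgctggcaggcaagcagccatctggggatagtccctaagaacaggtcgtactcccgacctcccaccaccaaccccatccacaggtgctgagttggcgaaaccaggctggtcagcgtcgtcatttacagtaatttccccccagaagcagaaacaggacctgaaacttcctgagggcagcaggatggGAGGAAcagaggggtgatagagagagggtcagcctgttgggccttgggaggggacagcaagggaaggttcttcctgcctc
C1qc: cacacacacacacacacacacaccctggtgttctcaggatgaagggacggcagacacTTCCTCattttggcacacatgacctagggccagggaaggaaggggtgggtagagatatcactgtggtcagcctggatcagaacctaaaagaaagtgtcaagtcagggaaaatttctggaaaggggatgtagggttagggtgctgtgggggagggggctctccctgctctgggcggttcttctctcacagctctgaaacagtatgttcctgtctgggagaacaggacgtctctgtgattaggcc
The core stood once in each window, on the strand of the gene in C1qb and on the opposite strand in C1qc, where it extended to GAGGAAG.

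Within a library, C1q changed relative to the macrophage receptor gene. The summed normalised read counts of the 3 chains were 60 to 77.3 per 100 of Csf1r in PE knockdown against 15.8 to 19.8 in PBS knockdown libraries, and 54.1 to 68.2 in PE control against 8.64 to 9.79 in PBS control libraries. Every PE range lay above every PBS range, and the PBS knockdown range lay above the PBS control range. The share of C1qc in the summed chains was 29.3% to 39.4% in PE knockdown, 30.9% to 33.2% in PE control, 30.9% to 49.1% in PBS knockdown and 15.6% to 33.3% in PBS control libraries. These ratios are not scaled by gene length and are given as descriptions with no test. Csf1r itself was called higher with PE in knockdown cells, and its reads may be mixed with those of Hmgxb3.

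**Figure D2:**
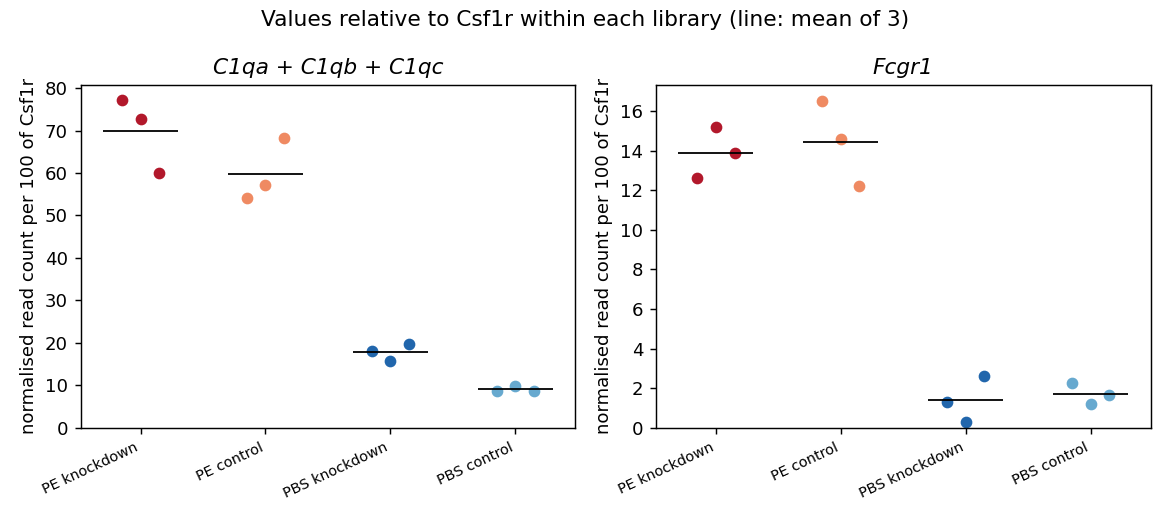
Points are the 12 libraries and lines the means of 3, with the normalised read count per 100 of Csf1r on the y axis for the summed C1q chains (left) and Fcgr1 (right). All PE libraries lie at or above 54.1 for C1q and 12.2 for Fcgr1, and all PBS libraries at or below 19.8 and 2.6.

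Both Fc receptors rose with each GapmeR, the adaptor gene Tyrobp rose in control cells, and the adaptor gene Fcer1g did not pass the test. Fcgr1 (ENSMUSG00000015947.11, chromosome 3, 96282909 to 96293969), the gene of the high-affinity IgG receptor CD64, had 49.2, 58.8 and 49.6 in PE knockdown against 3.63, 0.904 and 7.33 in PBS knockdown libraries, and 60.3, 51.0 and 41.3 in PE control against 6.64, 4.09 and 5.66 in PBS control libraries. The lowest PE library was several times the highest PBS library, and the log2 change was 3.67 ± 0.41 in knockdown and 3.01 ± 0.41 in control cells (limma, adjusted p = 1.4e-06 and 1.5e-05). Fcgr3, a low-affinity IgG receptor, had 171, 159 and 147 in PE knockdown against 74.4, 47.9 and 65.1 in PBS knockdown libraries, and 154, 139 and 163 in PE control against 54.1, 73.6 and 65.1 in PBS control libraries. It lay wholly higher in PE, by 1.35 ± 0.18 and 1.24 ± 0.18 (limma, adjusted p = 1.2e-05 and 3.4e-05).

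The adaptor gene Fcer1g, whose product both receptors use, had 249 ± 53.4 in PE knockdown against 230 ± 18.7 in PBS knockdown cells, and 280 ± 17.9 in PE control against 316 ± 95 in PBS control cells. The groups overlapped and the log2 change was 0.09 (95% interval -0.29 to 0.47) and -0.13 (-0.52 to 0.25). Tyrobp, another adaptor, had 142, 179 and 156 in PE control against 91.1, 90.0 and 129 in PBS control libraries, and did not overlap. Its log2 change was 0.63 ± 0.18 (limma, adjusted p = 0.014), a call lost without PBS control replicate 1, PBS control replicate 2 or PE control replicate 2 (0.55, 0.54 and 0.54, adjusted p = 0.068, 0.058 and 0.074). In knockdown cells Tyrobp was 141 ± 13.7 in PE against 113 ± 23.4 in PBS, which overlapped, with a log2 change of 0.33 (-0.04 to 0.71). The window of Fcgr1 (chr3:96293920-96294219, minus strand) is shown because the PE and PBS libraries of this gene lay so far apart, and capitals again mark the PU.1 core.
Fcgr1: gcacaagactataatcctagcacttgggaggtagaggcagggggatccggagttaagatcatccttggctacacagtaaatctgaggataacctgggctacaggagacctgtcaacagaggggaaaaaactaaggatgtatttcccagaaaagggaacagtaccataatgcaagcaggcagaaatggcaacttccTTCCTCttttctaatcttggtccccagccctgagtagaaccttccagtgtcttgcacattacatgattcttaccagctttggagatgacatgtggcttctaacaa
The core lay on the opposite strand, again as GAGGAAG. RefSeq windows were found for 29 members, 35 windows in all, of which 16 held GAGGAA on either strand (45.7%) and 11 held GAGGAAG, which contains it (31.4%). Of all 32851 windows of this length, 28.3% held GAGGAA and 13.6% GAGGAAG. A match of these letters is a description and not a binding site.

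Of 10 macrophage surface and identity genes tested, PE raised 4 in control cells (40%) and 5 in knockdown cells (50%). Over all genes tested, 12.6% and 13.4% were called higher. The other surface genes were not called, which does not show that they were unchanged. Itgam, which encodes the integrin CD11b, had 57.8, 47.9 and 42.7 in PE knockdown against 12.7, 11.8 and 20.2 in PBS knockdown libraries, and 68.9, 57.4 and 85.8 in PE control against 19.0, 20.5 and 17.9 in PBS control libraries. PE libraries were wholly higher, by 1.70 ± 0.25 and 1.82 ± 0.25 (limma, adjusted p = 4.5e-05 and 2.2e-05). Mrc1, the gene of the mannose receptor CD206, had 127, 117 and 84.4 in PE knockdown against 54.4, 52.4 and 44.9 in PBS knockdown libraries, and 120, 121 and 132 in PE control against 55.0, 55.2 and 69.9 in PBS control libraries. Its PE values were again wholly above, by 1.08 ± 0.19 and 1.05 ± 0.19 (limma, adjusted p = 1.8e-04 and 2.7e-04).

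Smaller rises were found in Adgre1, the gene of the macrophage antigen F4/80, and in Mpeg1, a pore-forming protein of phagocytes. Adgre1 had 157, 209 and 195 in PE knockdown against 144, 98.5 and 139 in PBS knockdown libraries, and 254, 224 and 262 in PE control against 154, 166 and 179 in PBS control libraries. Its log2 changes were 0.56 ± 0.16 and 0.57 ± 0.16 (limma, adjusted p = 0.012 for both). The call in knockdown cells was lost without PBS knockdown replicate 2 (0.39, adjusted p = 0.056) or PE knockdown replicate 2 (0.48, 0.069), and that in control cells without PBS control replicate 1 (0.51, 0.058) or PE control replicate 3 (0.52, 0.053). Mpeg1 had 742 ± 24.6 in PE knockdown against 543 ± 72.4 in PBS knockdown cells, and 807 ± 15.7 in PE control against 594 ± 52.5 in PBS control cells. Neither pair overlapped, and Mpeg1 rose by 0.46 ± 0.11 and 0.44 ± 0.11 on the log2 scale (limma, adjusted p = 0.0036 and 0.0049). With rescaled totals both calls were lost (0.32 and 0.29, adjusted p = 0.052 and 0.082).

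Cd68 had 1508, 1029 and 894 in PE knockdown against 899, 1161 and 960 in PBS knockdown libraries, and 986, 1052 and 1220 in PE control against 931, 1555 and 1043 in PBS control libraries. One library stood high in PE knockdown and one in PBS control, the groups overlapped, and the log2 change was 0.16 (95% interval -0.22 to 0.54) and -0.08 (-0.46 to 0.29). Trem2, a lipid-sensing receptor, lay wholly higher in PE with both GapmeRs but was not called, at 0.30 (-0.12 to 0.72) and 0.35 (-0.07 to 0.77). Cx3cr1, the receptor for the chemokine fractalkine, had 11.8, 12.0 and 11.9 in PE knockdown against 1.81, 0 and 0.917 in PBS knockdown libraries, a log2 change of 2.88 ± 0.52 (limma, adjusted p = 2.8e-04). In control cells it had 5.39, 6.38 and 9.77 in PE against 1.90, 9.20 and 2.83 in PBS libraries, which overlapped, at 0.72 (-0.36 to 1.80). The difference between these PE effects was 2.16 ± 0.73 and did not pass limma over all genes (adjusted p = 0.36). With such low values, log2 changes on the value plus 1 scale understate the ratio. Ms4a7, a membrane protein of macrophages, averaged 50.3 over all libraries and was not called with either GapmeR, at 0.30 (-0.33 to 0.94) and 0.64 (0.01 to 1.27). Folr2, a folate receptor of resident macrophages, averaged 4.86 and was not called, at 0.21 (-0.85 to 1.27) and 0.48 (-0.58 to 1.54). Cd163, a haemoglobin scavenger receptor, averaged 1.31 and was not called either, at -0.29 (-1.47 to 0.90) and -0.07 (-1.25 to 1.11). Folr2 shares 975 exon bases with the antisense gene Gm10602, which averaged 80.7.

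**Figure D3:**
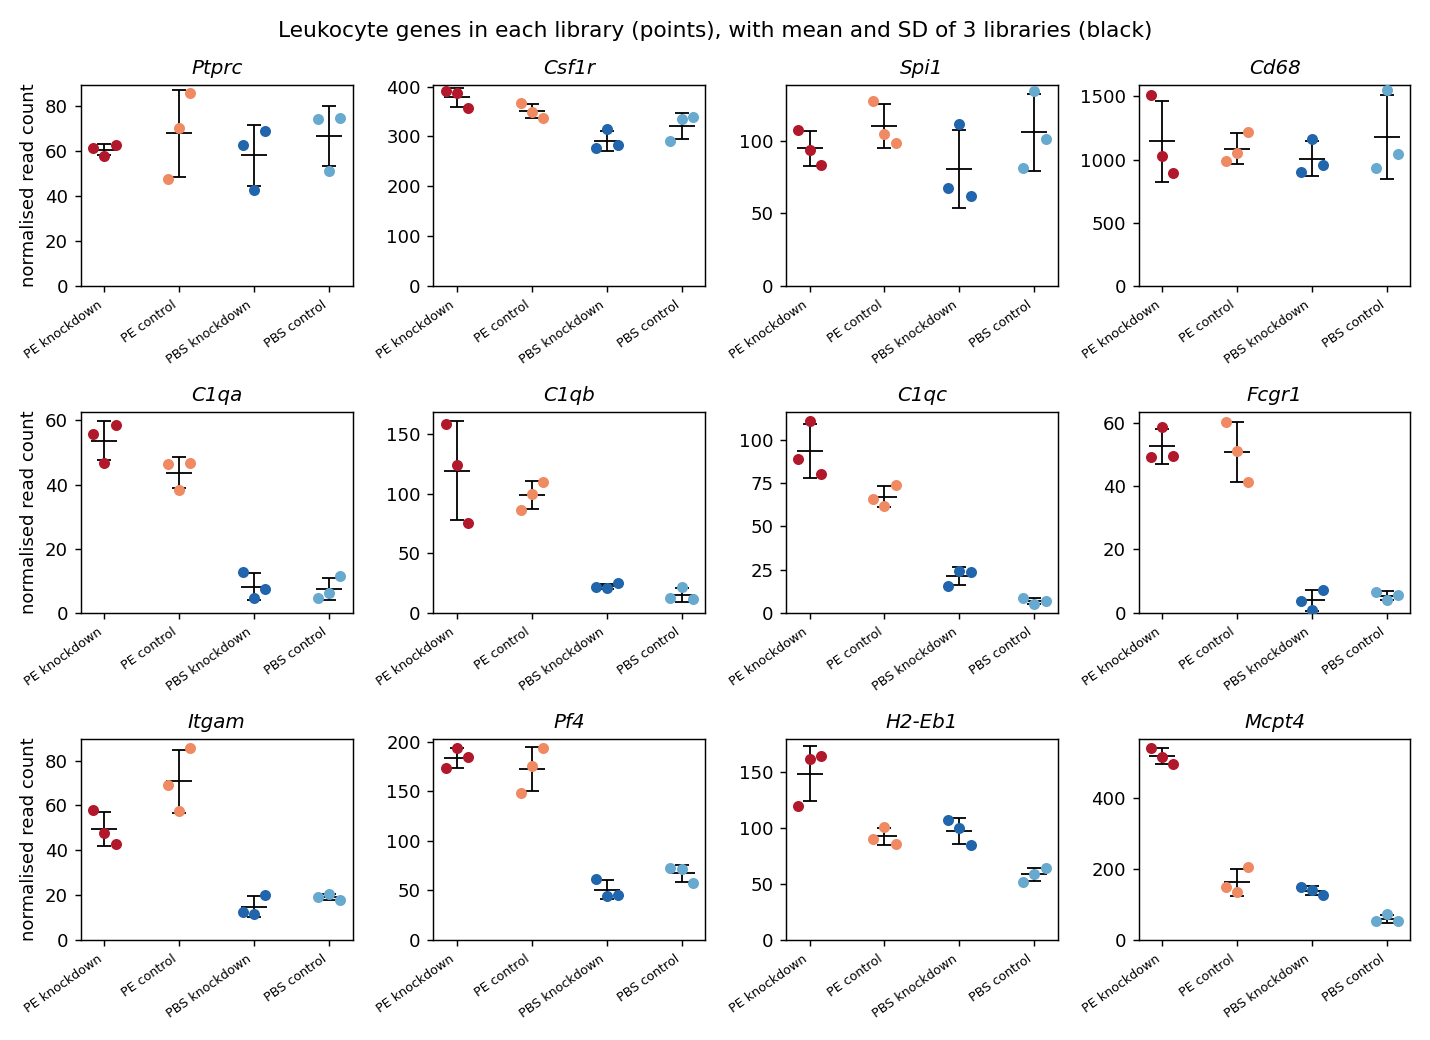
Each panel gives the normalised read count of one member (y axis) in the 12 libraries (points) by group, with the mean and SD of 3 in black. C1qa, C1qb, C1qc, Fcgr1, Itgam and Pf4 separate PE from PBS, C1qc, Mcpt4 and H2-Eb1 also separate knockdown from control within each treatment, and Ptprc, Spi1 and Cd68 overlap across groups.

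Of 7 pan-leukocyte genes, 3 rose with each GapmeR (42.9%). Over all genes tested, 13.4% were called higher in knockdown and 12.6% in control cells. Cd53, a leukocyte tetraspanin, had 196, 199 and 197 in PE knockdown against 130, 109 and 152 in PBS knockdown libraries, and 223, 231 and 249 in PE control against 146, 132 and 149 in PBS control libraries. PE was wholly higher, by 0.61 ± 0.14 and 0.71 ± 0.14 (limma, adjusted p = 0.0026 and 7.2e-04). Lcp1, the actin-bundling protein of leukocytes, averaged 779 ± 39.2 in PE knockdown against 536 ± 46.4 in PBS knockdown cells, and 753 ± 41.4 in PE control against 592 ± 25.9 in PBS control cells. Laptm5, a lysosomal membrane protein of blood cells, averaged 255 ± 19.8 against 191 ± 24.2 in PE and PBS knockdown cells, and 281 ± 11.1 against 199 ± 35.7 in PE and PBS control cells. Lcp1 rose by 0.54 ± 0.10 and 0.35 ± 0.10 and Laptm5 by 0.42 ± 0.14 and 0.51 ± 0.14 (limma, adjusted p = 3.9e-04 and 0.015, and 0.038 and 0.013). In control cells the call of Lcp1 was lost without PBS control replicate 3 (0.31) or PE control replicate 1 (0.30), both with limma adjusted p = 0.073, and that of Laptm5 without PBS control replicate 1 (0.36, 0.098). In knockdown cells Laptm5 fell below the threshold without any one of 6 libraries, 3 of PE knockdown, 2 of PBS knockdown (replicates 1 and 3) and PE control replicate 2, where its log2 change was 0.31 to 0.46 (limma, adjusted p between 0.051 and 0.15).

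The other pan-leukocyte genes besides Ptprc were not called with either GapmeR. Coro1a, a coronin that binds actin, was -0.25 (95% interval -0.88 to 0.39) in knockdown and 0.54 (-0.09 to 1.18) in control cells, and it shares 26 exon bases with Bola2, which averaged 512. Cd52 was 0.10 (-0.66 to 0.87) and 0.32 (-0.45 to 1.08). Aif1, the calcium-binding protein IBA1 used to stain macrophages, had 7.49, 1.99 and 7.94 in PE knockdown against 0.907, 1.81 and 0 in PBS knockdown libraries, and 0, 0 and 2.17 in PE control against 0.949, 5.11 and 5.66 in PBS control libraries. Its log2 changes had opposite signs, 1.80 ± 0.67 and -1.55 ± 0.67 (limma, adjusted p = 0.054 and 0.1), and their difference of 3.35 ± 0.95 did not pass limma over all genes (adjusted p = 0.26). Aif1 passed limma in knockdown cells without PE knockdown replicate 2 (2.32, adjusted p = 0.028), PBS knockdown replicate 2 (2.14, 0.041), PBS control replicate 1 (1.80, 0.042) or PE control replicate 3 (1.80, 0.046), and in control cells without PBS control replicate 1 (-2.12, 0.042) or PE control replicate 3 (-2.10, 0.045).

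Of the secreted and lysosomal products, Pf4 and Lyz2 rose and Ctss did not pass the test. Pf4 (ENSMUSG00000029373.8, chromosome 5, 90772435 to 90773383), a chemokine known from platelets that macrophages also make, had 173, 193 and 185 in PE knockdown against 61.7, 44.3 and 45.8 in PBS knockdown libraries, and 149, 175 and 193 in PE control against 73.1, 71.6 and 57.6 in PBS control libraries. Every PE library lay above every PBS library, by 1.86 ± 0.17 and 1.34 ± 0.17 on the log2 scale (limma, adjusted p = 1.4e-07 and 7.9e-06). Lyz2 had 1439 ± 105 in PE knockdown against 955 ± 30.1 in PBS knockdown cells, and 1559 ± 143 in PE control against 1103 ± 168 in PBS control cells. PE was wholly higher, by 0.59 ± 0.11 and 0.50 ± 0.11 (limma, adjusted p = 4.3e-04 and 0.0019). The near-identical Lyz1 averaged 1.70. Ctss was 452 ± 44.5 in PE knockdown against 425 ± 96.3 in PBS knockdown cells, and 473 ± 28.4 in PE control against 493 ± 32 in PBS control cells, with a log2 change of 0.11 (95% interval -0.18 to 0.40) and -0.06 (-0.35 to 0.23). Of the pattern recognition genes, Cd14, a receptor for bacterial lipopolysaccharide, was 0.05 (-0.35 to 0.45) and 0.22 (-0.18 to 0.62), and Ly86, a partner of a Toll-like receptor relative, was -0.97 (-1.84 to -0.10) and 0.16 (-0.71 to 1.03). Ly86 averaged 6.88 in PE knockdown against 13.4 in PBS knockdown cells and passed limma as lower without PE knockdown replicate 1 (-1.32, adjusted p = 0.034).

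The MHC class II genes, which encode the proteins that present peptides to helper T cells, did not move together. H2-Eb1 (ENSMUSG00000060586.12, chromosome 17, 34305867 to 34316674) had 120, 162 and 164 in PE knockdown against 107, 100 and 84.3 in PBS knockdown libraries, and 90.5, 101 and 85.8 in PE control against 52.2, 59.3 and 64.2 in PBS control libraries. The libraries fell into a high PE knockdown group, a low PBS control group and 2 groups between them. The rise with PE was 0.60 ± 0.17 in knockdown and 0.65 ± 0.17 in control cells (limma, adjusted p = 0.014 and 0.0086). The call in knockdown cells was lost without PBS knockdown replicate 3, PE knockdown replicate 2 or PE knockdown replicate 3 (0.50, 0.53 and 0.52, adjusted p = 0.068, 0.068 and 0.07), and with rescaled totals (0.46, 0.066). The class II genes H2-Ab1 and H2-Aa had few reads. H2-Ab1 had 7.49, 5.98 and 3.97 in PE knockdown against 5.44, 6.33 and 6.42 in PBS knockdown libraries, which overlapped, at -0.08 (95% interval -0.97 to 0.80). In control cells it had 6.46, 4.25 and 3.26 in PE against 7.59, 21.5 and 16.1 in PBS libraries, and fell by 1.43 on the log2 scale (SE 0.42; limma, adjusted p = 0.016). That call was lost without PBS control replicate 2, PBS control replicate 3 or PE control replicate 3 (-1.14, -1.34 and -1.25, adjusted p = 0.086, 0.062 and 0.068). H2-Aa averaged 2.43 over all libraries and Cd74, the invariant chain, 23.0, and neither was called, at -1.01 (-2.30 to 0.28) and -0.01 (-0.60 to 0.58) in knockdown and -0.84 (-2.13 to 0.46) and -0.06 (-0.66 to 0.53) in control cells. Per kilobase, H2-Eb1 averaged 51, H2-Ab1 3.07 and H2-Aa 0.639. The class II protein is a pair of an alpha and a beta chain. The paralog H2-Eb2 and the related gene H2-Ea-ps had 0 reads.

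Windows of H2-Eb1 (chr17:34305617-34305916, plus strand) and H2-Aa (chr17:34287774-34288073, minus strand) are shown because these class II genes differed so much in level. Capitals mark CCAAT, a box known in class II promoters, or ATTGG on the other strand.
H2-Eb1: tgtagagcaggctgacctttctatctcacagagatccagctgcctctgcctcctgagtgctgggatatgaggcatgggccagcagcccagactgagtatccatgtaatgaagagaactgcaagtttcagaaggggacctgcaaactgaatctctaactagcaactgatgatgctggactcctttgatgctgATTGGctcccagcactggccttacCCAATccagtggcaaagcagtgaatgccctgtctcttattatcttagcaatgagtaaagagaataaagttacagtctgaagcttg
H2-Aa: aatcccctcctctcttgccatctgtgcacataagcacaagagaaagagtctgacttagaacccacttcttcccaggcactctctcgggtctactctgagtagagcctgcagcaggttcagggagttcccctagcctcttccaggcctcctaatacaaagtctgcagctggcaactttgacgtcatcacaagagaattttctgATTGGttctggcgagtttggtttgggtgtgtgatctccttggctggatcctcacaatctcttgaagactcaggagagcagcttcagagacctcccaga
H2-Eb1 held the box 2 times and H2-Aa once. Of the members' 35 windows, 13 held it (37.1%), against 37.4% of all windows.

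Mcpt4 (ENSMUSG00000061068.8, chromosome 14, 56059629 to 56062313), a chymase of mouse mast cells, was called with PE and with the GapmeR in each setting, as H2-Eb1 was. It had 540, 513 and 495 in PE knockdown against 150, 140 and 126 in PBS knockdown libraries, and 149, 134 and 205 in PE control against 53.1, 72.6 and 53.8 in PBS control libraries. PE values were wholly higher with each GapmeR, by 1.89 ± 0.17 and 1.42 ± 0.17 (limma, adjusted p = 7.1e-08 and 2.6e-06). Cpa3, the carboxypeptidase of mast cell granules, averaged 1.23 over all libraries and overlapped in every comparison. Of 9 further mast cell and basophil markers, Fcer1a, Ms4a2 and Mrgprb1 had 0 reads in every library, and Tpsb2, Tpsab1 and Mcpt8 averaged 0.241, 0.315 and 0.938. The list's summed level, mostly from Kit, was 183 to 269 in PE knockdown against 298 to 389 in PBS knockdown libraries, and 221 to 235 in PE control against 342 to 369 in PBS control libraries, so it ran opposite to Mcpt4. In control cells Kit fell by 0.58 (210 ± 4.67 in PE against 314 ± 26.5 in PBS) and Hdc, which makes histamine, by 1.55 on the log2 scale (13.7 ± 6.31 against 40.1 ± 12.5; limma, adjusted p = 0.0087 and 0.0018). The remaining tested marker of that list, Cma1, was at 0.60 in control cells, the direction of Mcpt4, and was not called. The related chymase gene Mcpt2, named after its values were seen, averaged 19.8 in PE knockdown, 3.95 in PE control, 7.58 in PBS knockdown and 3.89 in PBS control cells. The Mcpt4 window (chr14:56062261-56062560, minus strand) is shown because the PE and GapmeR changes of this gene were both above 1 on the log2 scale.
Mcpt4: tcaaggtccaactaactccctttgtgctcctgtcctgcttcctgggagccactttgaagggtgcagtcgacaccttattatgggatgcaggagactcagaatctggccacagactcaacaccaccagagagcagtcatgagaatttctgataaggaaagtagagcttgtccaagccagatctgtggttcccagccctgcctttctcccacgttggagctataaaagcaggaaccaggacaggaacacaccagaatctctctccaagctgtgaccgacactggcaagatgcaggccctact
Neither GAGGAA nor CCAAT stood in it on either strand.

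The GapmeR comparisons called fewer members than the PE comparisons. In PE, 2 of 37 (5.41%) were higher with the lincRNA-p21 GapmeR and 0 lower. Of all genes tested, 11.7% were called there, 4.57% higher and 7.14% lower. In PBS, 3 of 37 (8.11%) were higher and 0 lower, where 4.57% of all genes were called, 1.36% higher and 3.21% lower. The members' median log2 change was -0.01 in PE and -0.14 in PBS, against 0.01 and 0.00 over all genes. Each group of libraries serves 1 GapmeR comparison and 1 PE comparison, so the 2 kinds are not independent.

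Mcpt4 was higher in knockdown libraries without overlap in both treatments, by 1.68 ± 0.17 in PE and 1.21 ± 0.17 in PBS (limma, adjusted p = 1.0e-06 and 1.5e-04), or 3.17 and 2.31 times the control mean. H2-Eb1 was higher by 0.67 ± 0.17 in PE and 0.72 ± 0.17 in PBS (limma, adjusted p = 0.015 and 0.019). Its call in PE was lost without PE control replicate 1 or 3 (0.65 and 0.62, adjusted p = 0.052 and 0.064) or PE knockdown replicate 2 or 3 (0.60 and 0.59, 0.083 for both), and in PBS without PBS control replicate 1 (0.64, 0.098) or PBS knockdown replicate 1 (0.65, 0.072). C1qc was 21.2 ± 5.03 in PBS knockdown against 6.75 ± 1.72 in PBS control cells, a rise of 1.52 ± 0.26 (limma, adjusted p = 0.0012). With only the 6 PBS libraries fitted, the calls of C1qc and H2-Eb1 in PBS were lost (limma, adjusted p = 0.061 and 0.093). In PE, C1qc was 93.3 ± 15.6 in knockdown against 67.1 ± 6.2 in control cells, which did not overlap and was not called, at 0.46 (95% interval -0.07 to 1.00). C1qb and C1qa were 0.60 (0.03 to 1.17) and 0.11 (-0.62 to 0.83) in PBS, neither called, although C1qb passed without the 3 distant libraries (0.92, limma adjusted p = 0.028).

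Adgre1 lay wholly lower in knockdown libraries in both treatments, at -0.40 (95% interval -0.74 to -0.07) in PE and -0.40 (-0.73 to -0.06) in PBS, but was not called (limma, adjusted p = 0.12 and 0.18). It passed in PE without PBS knockdown replicate 2 (-0.40, adjusted p = 0.039). Aif1 was 2.05 ± 0.67 in PE and not called (limma, adjusted p = 0.055), and it passed without PE control replicate 3 (2.61, 0.03), PE knockdown replicate 2 (2.57, 0.037), PBS knockdown replicate 2 (2.05, 0.042) or PBS control replicate 1 (2.05, 0.045). Csf1r and Ptprc were 0.11 (-0.13 to 0.34) and -0.12 (-0.62 to 0.38) in PE, and -0.14 (-0.37 to 0.09) and -0.21 (-0.70 to 0.29) in PBS. Fcgr1, Itgam and Pf4, which rose with PE, were 0.06, -0.50 and 0.10 in PE and -0.61, -0.38 and -0.41 in PBS. None was called, and the 95% intervals included 0 except for Pf4 in PBS (-0.78 to -0.05). No member passed the test for a difference of the PE effect between the GapmeRs (limma, 0 of 37 called, where 0.055% of all genes were), and 5 had an unadjusted p under 0.05 (Aif1, Cx3cr1, C1qc, H2-Ab1 and Pf4). No other tool was run for that difference.

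**Figure D4:**
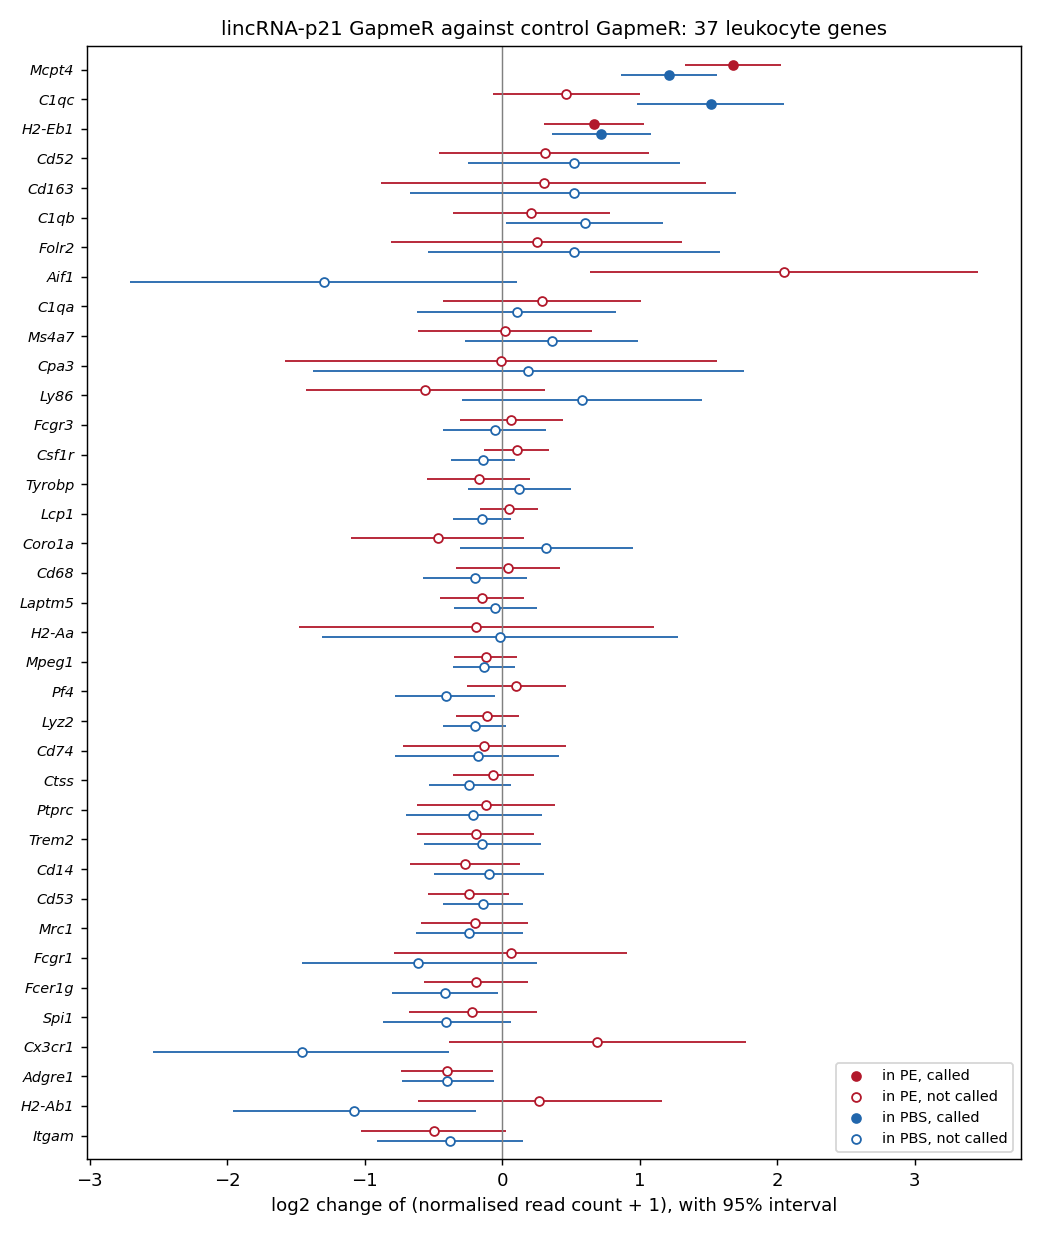
The log2 change of the normalised read count plus 1 with the lincRNA-p21 GapmeR is on the x axis for 37 members, with 95% intervals, in PE and in PBS; filled points passed limma. Mcpt4 and H2-Eb1 are filled in both treatments and C1qc in PBS, while most intervals include 0.

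Genes that act on macrophages moved with PE in the same libraries. Over all genes tested, 12.6% were called higher and 12.8% lower with PE in control cells, and 13.4% and 14% in knockdown cells. The list counts below should be read beside these shares. The lists too were chosen with earlier results of these data known, so a higher share can come from the choice alone. Of 7 myeloid growth factors and receptors, 4 rose in control cells and 0 fell, with a median of 0.69. Csf1, the ligand of the Csf1r receptor, had 21974 ± 752 in PE against 7764 ± 376 in PBS control cells (log2 change 1.50 ± 0.11; limma, adjusted p = 3.5e-09), and Csf3 rose by 3.14, Csf2 by 2.95 and the receptor chain Csf2rb by 0.69. In knockdown cells 4 of 7 rose too, Csf1 by 1.30 ± 0.11. Of 11 monocyte chemokines and receptors tested, 9 rose in control and 11 in knockdown cells and 0 fell, with medians of 1.36 and 1.47. Ccl6 rose by 5.30, Ccl9 by 2.42, Ccr1 by 1.66 and Ccl4 by 1.63 in control cells.

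Of 24 scavenger, pattern and Fc receptors tested, 12 rose and 2 fell in control cells (median 0.61), and 15 rose and 1 fell in knockdown cells (0.79). Marco rose by 2.24, the glucan receptor gene Clec7a by 2.23, Msr1 by 2.12 and Stab1 by 1.61 in control cells. Of 28 phagocyte signalling and oxidase genes, 3 rose (10.7%, where 12.6% of all genes tested were called higher) and 0 fell in control cells (median 0.20), namely Plek at 0.72, Arhgdib at 0.66 and Itgb2, the partner chain of CD11b, at 0.48. The call of Itgb2 was lost without PBS control replicate 1 (0.41, limma adjusted p = 0.053) or PE control replicate 1 (0.40, 0.057). In knockdown cells 6 rose (21.4%, where 13.4% of all genes tested were called higher) and 2 fell (median 0.13). Of 16 phagocyte lysosome genes, 2 rose and 2 fell in control cells (12.5% each), near the 12.6% and 12.8% of all genes tested. In knockdown cells 1 rose (6.25%) and 4 fell (25%), where 13.4% and 14% of all genes were called higher and lower. The medians were -0.05 in control and -0.11 in knockdown cells. With the lincRNA-p21 GapmeR, 3 of the 24 scavenger, pattern and Fc receptors fell in PE (12.5%) and 2 in PBS (8.33%). Over all genes tested, 7.14% in PE and 3.21% in PBS were called lower. Those falling in PE were Mertk by 0.84, Tlr4 by 0.64 and Clec12a by 1.68, and in PBS Msr1 by 0.87 and Mertk by 0.49. The call of Clec12a was lost without any one of 7 libraries (PE knockdown replicates 1 and 3, the PE control libraries, PBS knockdown replicate 3 and PBS control replicate 3; log2 change -1.79 to -1.45, limma adjusted p 0.056 to 0.16). In PBS, Msr1 was lost without PBS control replicate 3 (-0.79, 0.08), and Mertk without PBS knockdown replicate 1 (-0.40, 0.075) or PBS control replicates 1 or 3 (-0.52 and -0.42, 0.052 and 0.11).

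Complement genes outside C1q changed in both directions. Of 13 complement genes outside C1q, 7 fell and 2 rose with PE in control cells (median -0.89), and 5 fell and 3 rose in knockdown cells (-0.50). C1s1, which encodes a protease of the C1 complex, had 14.4 ± 3.43 in PE against 122 ± 16.7 in PBS control cells (log2 change -3.01 ± 0.25; limma, adjusted p = 3.2e-08). C3, the central component, had 530 ± 75 against 1882 ± 94.4 (-1.83 ± 0.11, adjusted p = 6.3e-10), C1rl was -2.42 and C4b -3.52. Of 6 further class II genes tested, 1 rose and 1 fell in control cells, Rfxank by 0.73 and Rfx5 by 0.71.

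**Figure D5:**
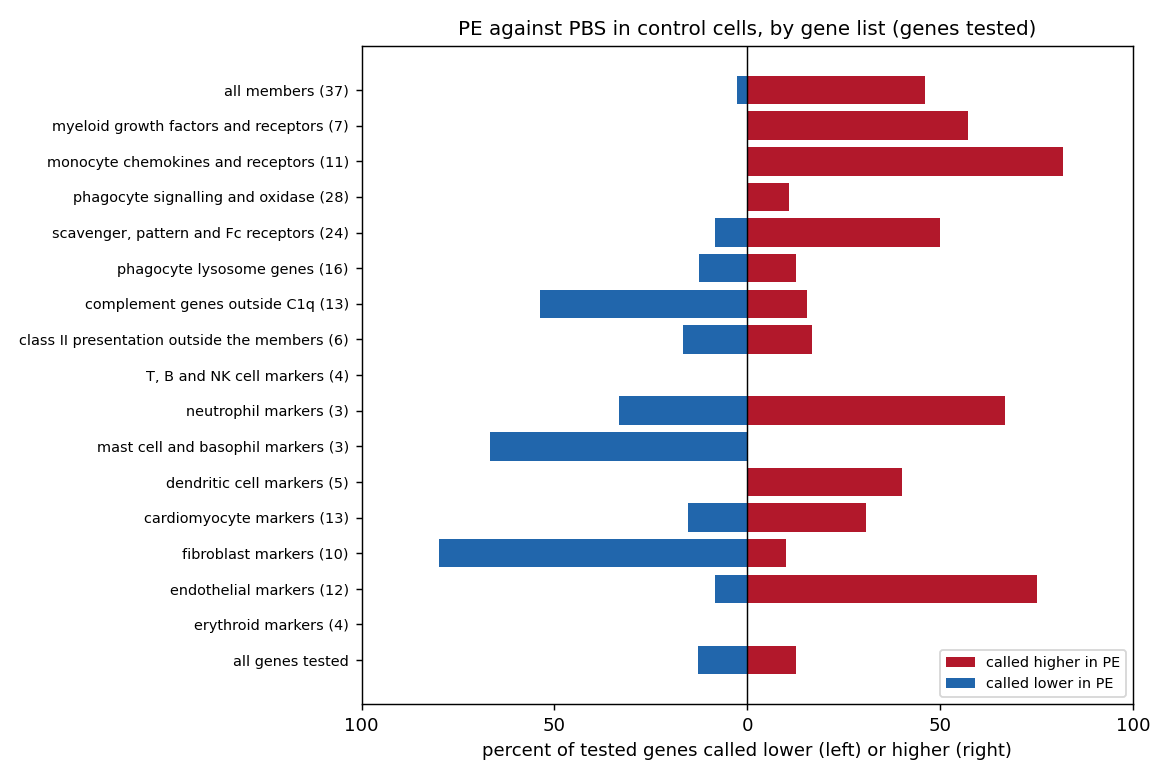
Bars give the percent of tested genes of each list called higher (right) or lower (left) with PE in control cells, with the number tested in brackets and all genes tested at the bottom. Chemokines, growth factors, scavenger receptors and endothelial markers lean to the right, and complement genes outside C1q and fibroblast markers to the left.

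Markers of other cells differed in how they changed with PE, and their part in the changes above was not tested. Over all genes tested, 12.6% were called higher and 12.8% lower with PE in control cells, and 13.4% and 14% in knockdown cells. Of 12 endothelial markers, 9 rose and 1 fell with PE in control cells (median 1.18), and their summed level was 10010 to 11858 in PE knockdown against 6095 to 8323 in PBS knockdown libraries, and 12061 to 13641 in PE control against 6428 to 7536 in PBS control libraries. Of 10 fibroblast markers, 8 fell and 1 rose (median -1.09), with a summed level of 27142 to 29952 in PE knockdown against 57676 to 72023 in PBS knockdown libraries, and 33053 to 37378 in PE control against 64872 to 69846 in PBS control libraries. Both lists were thus separated by PE without overlap. Of 10 neutrophil markers, Retnlg and Elane had 0 reads in every library and 3 were tested. Mmp8 rose by 1.75 and S100a8 by 1.62 in control cells, and Camp fell by 3.08. S100a8 averaged 4.28 in PE against 0.656 in PBS control cells, and its call was lost without any one of 9 libraries (all but PE control replicate 1 and PBS knockdown replicates 1 and 2; log2 change 1.22 to 1.80, limma adjusted p 0.05 to 0.22). It was also lost with a pseudocount of 0.1 (limma, adjusted p = 0.12), in edgeR (adjusted p = 0.086) and with only the 6 libraries compared (limma, adjusted p = 0.059). The list's summed level, mostly Mmp8, was 168 to 222 in PE knockdown against 60.6 to 97.0 in PBS knockdown libraries, and 193 to 224 in PE control against 81.6 to 90.6 in PBS control libraries. Of 9 dendritic cell markers, Cd209a had 0 reads and 5 were tested. Itgax rose by 1.06 and Zbtb46 by 0.33 in control cells. The call of Itgax was lost without PBS control replicate 2 or any one PE control library (0.65 to 1.07, limma adjusted p 0.084 to 0.2), and that of Zbtb46 without any one library of PE control or PBS control, or PE knockdown replicate 2 (0.28 to 0.37, 0.053 to 0.15). Their summed level over the list was 321 to 364 in PE knockdown against 250 to 279 in PBS knockdown libraries, and 333 to 368 in PE control against 253 to 281 in PBS control libraries. Of 14 markers of T, B and NK cells, Cd3d, Cd3g, Ncr1 and Nkg7 were among those with 0 reads in every library, and 4 were tested. With PE, limma called 0 of them in either cells, with 0 at an unadjusted p under 0.05 in knockdown and 1 in control cells. Lck and Cd79a had the highest means, 19.8 and 4.20. The list's summed level was 30.8 to 53.5 in PE knockdown against 20.2 to 40.8 in PBS knockdown libraries, and 22.6 to 28.2 in PE control against 11.4 to 24.5 in PBS control libraries. Erythroid markers summed to 4.72 to 55.1 per library, Hbb-bt had 0 reads, and limma called 0 of 4 tested with PE, with 0 at an unadjusted p under 0.05 in knockdown and 1 in control cells. Of the 13 cardiomyocyte markers, 4 rose and 2 fell with PE in control cells (30.8% and 15.4%), and 3 rose and 3 fell in knockdown cells (23.1% each). Mitochondrial genes held 4.33% to 10.7% of the reads. The PBS groups did not overlap, at 8.19% to 10.7% in control and 4.33% to 7.55% in knockdown libraries. The PE groups overlapped. Of the libraries farthest from their groups, PBS control replicate 2 had the highest share and PBS knockdown replicate 2 the lowest. PE knockdown replicate 1 had the next highest share. Whether the mitochondrial share had a part in the GapmeR calls was not tested.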

How the data were processed

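Polyadenylated RNA gave 12 libraries, 3 in each of 4 groups of cardiomyocytes from newborn mice, sequenced as paired ends. The submitters' processing notes name STAR, SAMtools, featureCounts and build GRCm38.p6; versions, gene annotation and strand use: not given in the sources used here. What was deposited is a table of signal values per gene, which the values show to be each library's read counts over a single size factor (100% whole multiples of a step, within 0.001). Recovered totals were 21325485 to 22139681 reads in genes per library; the intervals and floors given for reads cover counting error only. Symbols came from GENCODE M21 by gene ID (52135 of 55416; the other 3281 held 0.195% of the signal). Every gene with a mean value of at least 1 (21799) was tested with limma 3.58.1 in R 4.3.3 on log2(value + 1), so that folds of low genes are understated, with 4 group means over all 12 libraries, a trended prior, two-sided, and Benjamini-Hochberg adjustment at 0.05. The procedure was tested on simulated data first. Named are all 38 members, up to 4 called genes of each other list with the largest change per comparison (or the 2 with the highest mean), and Trp53cor1. The members and lists were chosen with earlier results of these data known. Alternatives were a pseudocount of 0.1, no filter, rescaled totals, a replicate block, only the 6 libraries compared, each library left out, the 3 distant libraries left out, and edgeR 4.0.16 and DESeq2 1.42.0 on recovered reads of 9 libraries. The PE knockdown group was kept out of those count tests because the step is so near 1 in its replicates 2 and 3 (0.997 and 0.993) that their values were not accepted as recovered reads.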

Additional observations from a re-analysis of the deposited data

How the results depend on the processing

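The counts of members called for PE with either GapmeR stayed within 1.5 times of 18 and 18 under every alternative run, at 15 to 19 in knockdown and 16 to 18 in control cells when single libraries were left out. For the GapmeR in PBS, 3 members became 1 (Mcpt4) when only the 6 libraries compared were fitted, and were 2 to 3 with single libraries left out. For the GapmeR in PE, 2 members became 1 to 4 with single libraries left out: 4 (3 higher and 1 lower) without PBS knockdown replicate 2, and 1 without PE knockdown replicate 3 or PE control replicate 1. The test of a different PE effect gave 0 members under every alternative run. No member changed sign past the threshold. Over all genes, the calls for the GapmeR in PE went to 4672 without the 3 distant libraries, against 2553, and to between 1671 and 3502 with single libraries left out. For the GapmeR in PBS they were 392 with only the 6 libraries, 1865 without the 3 distant ones and 510 to 1181 with single ones left out, against 997. For the difference of the PE effects they were 143 without the 3 distant libraries and 3 to 22 with single ones left out, against 12. The cause was not tested. With the replicate block the member counts were 18, 18, 2, 3 and 0, as without it. Same-numbered libraries did not deviate together (r -0.0866 to 0.0448). That cannot show whether they came from one preparation, which the labels do not state. Outside the members the block ended the calls of S100a8 and Zbtb46 for PE in control cells (limma, adjusted p = 0.064 and 0.059) and of Clec12a for the GapmeR in PE (0.064). Rescaled totals ended those of Itgb2, S100a8, Zbtb46 and Itgax for PE in control cells (limma, adjusted p = 0.072, 0.061, 0.3 and 0.08), of Clec12a in PE (0.058) and of Mertk in PBS (0.053). Itgax was also lost without the filter (0.086), in DESeq2 (adjusted p = 0.06) and without the 3 distant libraries (0.089), Clec12a with a pseudocount of 0.1 (0.071), without the filter (0.1) and without the 3 distant libraries (0.064), and Msr1 and Mertk in PBS with only the 6 libraries (0.17 and 0.11). DESeq2 gave no adjusted p for S100a8. The edgeR and DESeq2 fits each called 17 members higher and 1 lower for PE in control cells and 3 higher for the GapmeR in PBS; they were not run for comparisons with the PE knockdown group or for the difference of the PE effects. Without the filter, H2-Ab1 missed the threshold (-1.43, limma adjusted p = 0.056). At values under 10, as in 9 members, few reads limit what can be detected.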
